A study of Schizosaccharomyces pombe with 72 samples.

Results

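Quiescent fission yeast cells held at 36.5 °C (T4D36.5) were compared with cells cycling at 36.5 °C (V36.5). The members were chosen by growth condition, and they were 24 of the 72 libraries of the series, 12 in each group. Each group held strain codes 86, 92, 93 and 97 with 3 replicates a strain. All 4 strains were Schizosaccharomyces pombe of the mating type mat1-M-smt0, which can neither switch mating type nor find a partner of the opposite type in a pure culture. The strains of the study were wild-type, the mutants mis4-G1487D and mip1-R401G, and a strain with both mutations, where mis4 encodes the cohesin loader and mip1 the Raptor subunit of the growth kinase complex TORC1. The labels do not pair strain codes with genotypes, so every value is an average over the 4 strains or is given by strain code, and each group as a whole contained mutant cells. V36.5 cells grew in the rich medium YES at 25 °C and were shifted to 36.5 °C for the time of 1 doubling. T4D36.5 cells were washed from the minimal medium EMM2 into EMM2 without nitrogen, kept for 24 hr at 25 °C and then held at 36.5 °C for 4 days. The contrast therefore spans growth state, medium, nitrogen supply and the time spent at 36.5 °C, and these cannot be told apart. In both groups the cells were at the restrictive temperature of mis4-G1487D.

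Fission yeast that runs out of nitrogen divides a last time without growing, arrests before DNA replication, and then either mates or, with no partner, enters G0, a quiescent state that can last for weeks and from which cells return to the cycle when nitrogen comes back. TORC1 activity, which drives ribosome and protein synthesis in rich medium, drops when nitrogen is lost. Autophagy and vacuolar proteolysis then recycle amino acids, permeases for poor nitrogen sources are made, and the transcription factor Ste11 turns on the mating genes. Warming is sensed through the heat shock factor Hsf1, which controls chaperone genes, and through the stress kinase Sty1 with its transcription factor Atf1.

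Depth was lower in quiescent cells, with 1173880 to 4617602 counts on genes per library, against 1457590 to 7159426 in cycling cells. The median share of counts on protein-coding genes was 67.7% in quiescent and 79.6% in cycling libraries. The share on small nuclear RNAs was 6.58% against 2.27%, and the share on small nucleolar RNAs was 3.14% against 0.808%. T4D36.5 libraries held 45817 to 318904 counts of ERCC spike-in RNA, while V36.5 libraries held 0 to 8, so the way the libraries were prepared differed along with the growth state and these cannot be told apart. All fold changes are therefore relative to the other genes of the same library and say nothing of the amount of RNA per cell. In such bulk libraries, fewer cells of a kind and less RNA per cell also cannot be told apart. The labelled states were checked against gene lists. Of 15 genes of dividing cells, 13 were lower and 0 higher in T4D36.5, mcm2 and mcm5 were not called, and their summed level ran from 3463 to 5825 CPM (median 4653) in V36.5 and from 1751 to 2686 CPM (median 2210) in T4D36.5. Of 13 genes of nitrogen-starved cells, 12 were higher and fnx1 was lower, with a summed level of 373 to 647 CPM (median 439.7) in V36.5 and 2402 to 8163 CPM (median 4589) in T4D36.5. Of 3 genes of P cells, the mating type these strains lack, 2 were higher and 1 lower, and their sums overlapped, from 25.7 to 52.8 CPM in V36.5 and from 29.8 to 71.7 CPM in T4D36.5.

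Levels are CPM, counts scaled to the library total after TMM, and 3 levels in a group are always the lowest, the median and the highest of its 12 libraries. Fold changes are T4D36.5 over V36.5 on the log2 scale, averaged over the 4 strains, with their SE. Calls and adjusted p-values are those of the quasi-likelihood test in edgeR, adjusted by the Benjamini-Hochberg procedure over all 6223 genes tested, and a gene was called at an adjusted p under 0.05. With 12 libraries a side, 5320 genes (85.5%) were called. Higher levels in quiescent cells were called for 2614 genes (42.0%) and lower levels for 2706 (43.5%). A change of at least 2-fold as well was found for 1376 higher genes (22.1%) and 994 lower genes (16.0%). Among 4970 coding genes, 1833 (36.9%) were called higher and 2424 (48.8%) lower, 784 (15.8%) were at least 2-fold higher and 839 (16.9%) at least 2-fold lower. A count within a gene family has to be read against these shares. The response was lopsided at its far end, since 302 genes were at least 8-fold higher and 46 at least 8-fold lower. The median log2 fold change was -0.02 over all genes. The plot of list medians gives an overview of the families described in the following paragraphs.

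**Figure D1:**
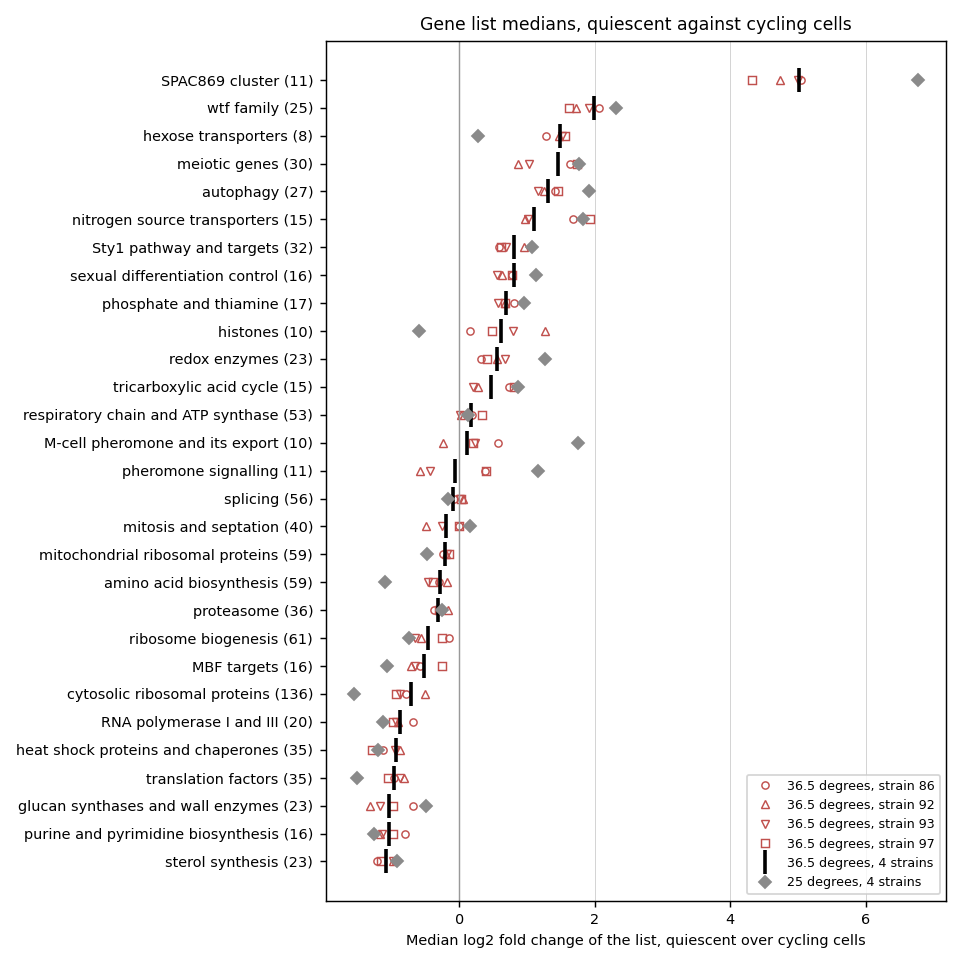
Median log2 fold change of quiescent (T4D36.5) over cycling (V36.5) cells in 29 gene lists, with the number of genes tested in brackets; black bars average the 4 strains, red open symbols give each strain, and grey diamonds give the same contrast at 25 °C (T4D25 over V25). The SPAC869 cluster has the highest median, 5.01, and autophagy genes lie at 1.31, while the cytosolic ribosomal protein genes lie at -0.72 and chaperones at -0.93.

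The largest rises included genes for uptake and breakdown of unusual nitrogen and carbon sources. SPAC869.04, which encodes a formamidase-like enzyme and lies at chrI:5511137-5512369 on the reverse strand (build ASM294v2), had 0.188, 0.592 and 2.72 CPM in cycling cells and 934, 2386 and 5209.7 CPM in quiescent cells. The lowest quiescent library was thus far above the highest cycling library, with a log2 fold change of 11.71 ± 0.18 (adjusted p = 1.45e-25). It belongs to a run of 11 genes, SPAC869.01 to SPAC869.11, near the right end of chromosome I, all of which were called higher and 9 of them at least 2-fold, with a median of 5.01. The least changed members were yhb1, for a nitric oxide dioxygenase, at 0.65 ± 0.07 and cat1, for an arginine and lysine permease, at 0.76 ± 0.07. The run took a median of 0.034% of coding counts in cycling and 0.918% in quiescent libraries. Its urea transporter gene SPAC869.03c rose from 0, 1.48 and 3.64 to 336, 814 and 1995 CPM (9.16 ± 0.15), and SPAC869.09 rose from 0, 0.332 and 2.63 to 249, 979 and 1572 CPM (10.81 ± 0.21). The proline permease gene put4 in the same run was already expressed in cycling cells, at 21.2, 39.2 and 50.4 CPM, and reached 136, 312 and 929 CPM (3.16 ± 0.10). The groups did not overlap for any of these 4 genes, which was a condition of naming for all but put4. The melibiase gene mel1, also in the run, rose from 2.63, 6.08 and 11.1 to 128, 208 and 319.9 CPM (5.01 ± 0.10). For hry1, which encodes a protein with a hemerythrin-type domain, V36.5 libraries held 0, 0 and 0.952 CPM and T4D36.5 libraries 209, 503.7 and 659 CPM, so nearly all of its signal was in quiescent cells.

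Other genes at the top of the list have roles in the cell wall, thiamine and metal handling. psu2, a member of the SUN family of cell wall proteins at chrII:3466270-3467797 on the reverse strand, had 0, 0.734 and 1.72 CPM in cycling and 407, 581 and 1029 CPM in quiescent cells (9.63 ± 0.16, adjusted p = 5.99e-25). nmt1, the thiamine-repressed gene for thiamine synthesis, had 0, 0.401 and 1.53 CPM against 66.2, 577 and 3143 CPM (9.53 ± 0.20). Both genes were close to silent in every cycling library, and fitted fold changes of genes so near 0 depend on the prior count. nmt1 spread widely among quiescent libraries, and its log2 change by strain was 10.55, 6.47, 6.72 and 10.34 in strains 86, 92, 93 and 97. pdc201, for a pyruvate decarboxylase, was uniform instead, with 7.31, 9.33 and 16.4 CPM rising to 2086, 2626 and 2978 CPM (8.0 ± 0.10). zym1, the metallothionein that binds zinc, rose from 10.3, 14.8 and 27.7 to 619, 1224 and 1484 CPM (6.22 ± 0.11). SPBPB21E7.10, which overlaps SPBPB21E7.11 on the other strand, had no count in any V36.5 library and 14.9, 55.9 and 169 CPM in T4D36.5, which makes its median at least 27.2-fold higher than the level that 3 counts represent in the shallowest cycling library (2.05 CPM).

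The largest falls came from copper uptake and cell separation. ctr4, for a subunit of the high-affinity copper transporter, lies at chrIII:818302-819361 on the forward strand and dropped from 203, 370.1 and 612 CPM to 0, 3.37 and 8.26 CPM (-6.75 ± 0.15, adjusted p = 5.72e-23). Its partner subunit gene ctr5 went from 151, 214 and 293.6 to 13.1, 23.6 and 34 CPM (-3.08 ± 0.11). Neither gene overlapped between the groups, which was a condition of naming for ctr4 but not for ctr5. eng1, the endo-glucanase that dissolves the septum between daughter cells, lies at chrI:998686-1002361 on the forward strand and fell from 282, 485 and 799 to 9.34, 13.6 and 27.8 CPM (-5.01 ± 0.10, adjusted p = 1.45e-23). adg1, a member of the mitosis and septation list, fell from 80.5, 155 and 283 to 2.64, 5.93 and 10.5 CPM (-4.69 ± 0.12). Of 23 cell wall enzyme genes, 17 were called lower, 12 of them at least 2-fold, and 5 higher, with a median of -1.04. agn1, the glucanase that acts on the septum edging, was lower at -3.02 ± 0.10, and the glucanosyltransferase genes gas1 and gas2 at -2.59 ± 0.11 and -2.94 ± 0.08. Other deep falls were seen for wis2, a cyclophilin that works with Hsp90, from 1657, 2111 and 3015 to 62.7, 125 and 233.6 CPM (-4.01 ± 0.07), and for ser2, for phosphoserine phosphatase, from 113, 156 and 211 to 8.14, 12.2 and 16.6 CPM (-3.72 ± 0.09). SPAC27D7.09c was lower at -3.92 ± 0.13, but much of its sequence has a near copy in the genome and its value is uncertain.

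**Figure D2:**
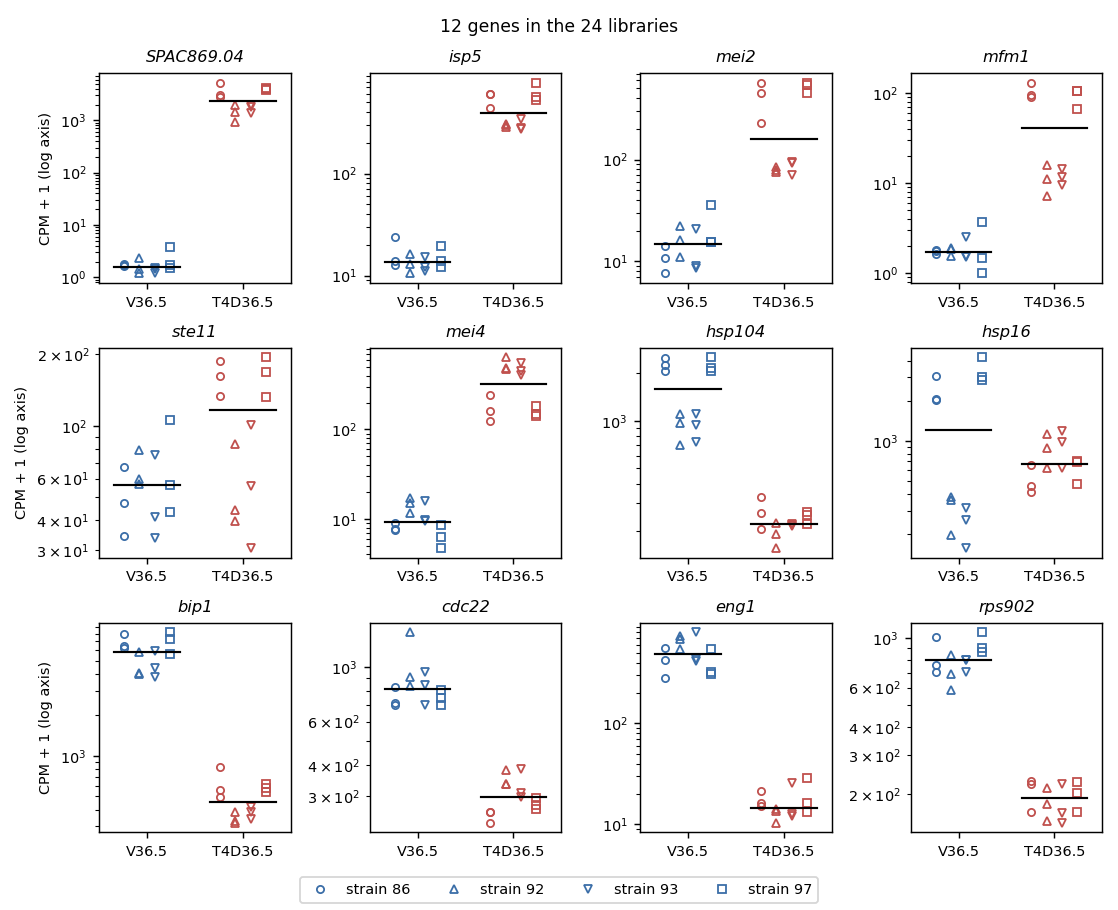
Level of 12 genes in each of the 24 libraries, in CPM plus 1 on a log axis, for cycling (V36.5) and quiescent (T4D36.5) cells; symbols mark the 4 strain codes and black lines the median of 12 libraries. The groups of SPAC869.04, isp5, mei2, mei4, hsp104, bip1, cdc22, eng1 and rps902 are apart, while those of ste11 and hsp16 overlap.

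Nitrogen-starvation genes were higher in quiescent cells. isp5, an amino acid permease, had 9.51, 12.5 and 23.0 CPM in V36.5 and 276, 395 and 777 CPM in T4D36.5, with no overlap and a log2 fold change of 4.98 ± 0.09 (adjusted p = 2.30e-24). Of 15 nitrogen source transporter genes, 10 were called higher and 8 of these at least 2-fold, 5 were lower and 2 of these at least 2-fold, and the median was 1.10. The letters GATAAG, read by GATA factors on either strand, were in 6 of 13 of their promoters (46.2%) and in 10.3% of all promoters. Among ammonium transporters, amt1 was higher at 3.32 ± 0.11 and amt3 at 2.12 ± 0.18, while amt2 was lower at -0.38 ± 0.07. The oligopeptide transporter gene isp4 was higher at 3.04 ± 0.16 and the amino acid permease gene per1 at 2.89 ± 0.07. The lower members included aat1, for an amino acid transporter, at -0.53 ± 0.09, and fnx1, for a vacuolar amino acid transporter known for its induction by nitrogen starvation, at -1.29 ± 0.10. The dipeptide transporter gene ptr2 was lower at -1.14 ± 0.14 on average but its log2 change was 0.46, -2.69, -2.65 and 0.34 in strains 86, 92, 93 and 97. Of 15 genes of nitrogen assimilation and its control, 10 were higher and 3 lower, and 3 in each direction changed at least 2-fold. isp7, an oxygenase family gene that acts in amino acid uptake, was higher at 3.58 ± 0.12, and gaf1, for the GATA transcription factor held back by TORC1, at 1.32 ± 0.08. gdh1 and gln1, which fix ammonium into glutamate and glutamine, were higher at 0.77 ± 0.10 and 0.32 ± 0.09. gln1 was no longer called without strain 86 (0.12) or without strain 97 (0.08). The breakdown enzymes for arginine and proline went the other way, with car2 at -3.32 ± 0.07, put2 at -1.92 ± 0.07 and aru1 at -1.87 ± 0.15.

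Autophagy genes were higher nearly throughout. Of 27 autophagy genes, 26 were called higher, 18 of them at least 2-fold, and atg11 was called lower at -0.28 ± 0.08, a call that was lost without replicate 3 (-0.16, adjusted p = 0.0709). The list median was 1.31. atg43, the mitochondrial receptor for mitophagy, rose from 48, 61.9 and 70.3 to 448, 544 and 652 CPM (3.19 ± 0.06). atg8, the ubiquitin-like protein that coats autophagosomes, rose from 12.9, 17.3 and 19.2 to 49.6, 69.6 and 91.6 CPM (2.00 ± 0.07), and the genes for its processing protease and its conjugating enzyme, atg4 and atg3, were higher at 2.20 ± 0.09 and 2.14 ± 0.09. Every quiescent library exceeded every cycling library for atg43 and for atg8. All 3 vacuolar protease genes were higher, and isp6, the serine protease needed for autophagic breakdown, rose from 49.7, 71.6 and 106 to 1056, 1460.2 and 2986 CPM (4.36 ± 0.12). The vacuolar proton pump did not follow, with 9 of 15 subunit genes lower and 3 higher, and of 36 proteasome genes 23 were lower and 3 higher (median -0.32), although only 1 in each direction of either list changed by at least 2-fold. Of 27 genes of the TOR pathways, 14 were higher and 5 lower (median 0.22). The kinase genes themselves were not called, with 0.11 ± 0.07 for tor1 (adjusted p = 0.12) and 0.04 ± 0.05 for tor2 (adjusted p = 0.514), and mip1 was lower at -0.28 ± 0.06. These calls depended on the processing, since tor1 was called higher with DESeq2 size factors (0.16, adjusted p = 0.0372), with the DESeq2 Wald test (0.16), with 60 libraries in the fit (0.13) and when genes had to reach 10 counts in each library (0.22). tor2 was called higher in the last of these settings (0.14, adjusted p = 0.00693).

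Genes of sexual differentiation and meiosis were mostly higher in these cells without a partner. mei2, the RNA-binding protein that starts meiosis, had 6.59, 13.7 and 34.9 CPM in cycling and 69.4, 159.7 and 568 CPM in quiescent cells (3.95 ± 0.17, adjusted p = 8.47e-17). The groups did not overlap, yet the rise differed by strain, at 5.26, 2.36, 2.92 and 4.69 in strains 86, 92, 93 and 97. ste11, for the transcription factor that acts on mei2 and the mating genes, changed less, from 32.7, 55.4 and 105 to 29.6, 116 and 193 CPM (0.81 ± 0.12, adjusted p = 6.64e-07). Its groups overlapped, and its log2 change was 1.74, -0.29, 0.24 and 1.36 in strains 86, 92, 93 and 97. pat1, for the kinase that inhibits Mei2 and Ste11, was higher at 2.80 ± 0.09. In all, 12 of 16 genes that control sexual differentiation were higher and 4 lower, with 6 at least 2-fold higher and 0 at least 2-fold lower.

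Mating genes proper split by member and by strain. mfm1, which encodes the M-factor pheromone, rose from 0, 0.705 and 2.74 to 6.23, 40.1 and 129 CPM (5.28 ± 0.25, adjusted p = 3.57e-16), at 6.26, 2.90, 3.00 and 6.10 in strains 86, 92, 93 and 97. mfm3 and mfm2, which encode the same peptide, were higher at 2.79 ± 0.25 and 1.65 ± 0.21, and mfm2 stood at 3.10, -0.04, 0.22 and 2.90 in strains 86, 92, 93 and 97. The receptor gene mam2 was not called, at -0.25 ± 0.23 (adjusted p = 0.309), although it was called lower without strain 86 (-0.79) and without strain 97 (-0.61), while mam1, for the pheromone exporter, was higher at 0.36 ± 0.07. Of 10 M-cell pheromone genes 5 were higher and 3 lower, with a median of 0.12, and of 11 pheromone signalling genes 4 were higher and 5 lower. Within the signalling chain, spk1, for the MAP kinase, was higher at 1.35 ± 0.15 and gpa1, for the G-protein subunit, at 0.93 ± 0.07, while ras1 was lower at -1.02 ± 0.08 and rgs1, a regulator that dampens the signal, at -0.78 ± 0.12. The P-cell genes also split, with map1 higher at 2.24 ± 0.14 and map4 at 1.22 ± 0.15, and map3, for the M-factor receptor, lower at -0.54 ± 0.11.

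Meiotic genes, which in cycling cells are kept low in part by elimination of their transcripts, were higher in the larger share of the list. Of 30 tested, 26 were called higher, 22 of them at least 2-fold, and 4 lower, 2 of them at least 2-fold, with a median of 1.45. mei4, the forkhead transcription factor of mid-meiosis, rose from 3.71, 8.12 and 16.0 to 122, 325 and 637 CPM (5.07 ± 0.09, adjusted p = 2.56e-24). By strain its rise was 4.46, 5.24, 5.42 and 4.73 in strains 86, 92, 93 and 97. mcp7, needed for meiotic recombination, rose from 8.21, 44.2 and 103 to 649, 813 and 1047 CPM (4.11 ± 0.14), and atf21, for an Atf-CREB family transcription factor with a part in meiosis, from 0.658, 1.76 and 4.22 to 19.1, 141 and 272 CPM (5.91 ± 0.20). The groups of these 3 genes did not overlap. spo6, for a regulator of the second meiotic division, went the other way at -3.57 ± 0.27. The rise of meiotic genes includes rec8, the meiotic cohesin subunit, at 2.44 ± 0.16, and rec11, its partner, at 1.29 ± 0.12. The summed level of 6 meiosis genes had a median of 72.4 CPM in V36.5 and 1186 CPM in T4D36.5.

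Ste11 binds a DNA element called the TR box, and the 250 bases before the annotated transcript start of mei2 (SPAC27D7.03c) are shown because they hold its core letters TTCTTTGTT, in capitals, 160 and 138 bases before that start. The sequence is from RefSeq, build ASM294v3, chrI:4515026-4515275 on the reverse strand, 5′ to 3′.
mei2: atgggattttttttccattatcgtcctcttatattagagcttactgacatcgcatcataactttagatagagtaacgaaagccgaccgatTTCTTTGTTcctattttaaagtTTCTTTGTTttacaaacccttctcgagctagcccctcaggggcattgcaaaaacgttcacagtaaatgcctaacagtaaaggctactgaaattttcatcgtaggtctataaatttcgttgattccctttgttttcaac

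The core was searched on both strands in the same window of each coding gene with an annotated transcript start. It was present in 2 of 8 promoters of M-cell pheromone genes (25.0%), against 1.51% of all 4498 promoters, and that of mfm2 held no match. Such matches describe the letters only.

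Cell cycle genes fell unevenly. The genes switched on before DNA replication by the transcription factor MBF were mostly lower, with 10 of 16 targets called lower, 7 of them at least 2-fold, and 4 higher (median -0.52). cdc22, for the large subunit of ribonucleotide reductase, fell from 699, 814 and 1379 to 232, 295 and 385 CPM (-1.48 ± 0.08, adjusted p = 2.76e-15). tos4, a forkhead-domain gene of S phase, fell from 181, 214 and 300.5 to 13, 18.0 and 37.3 CPM (-3.50 ± 0.09, adjusted p = 1.10e-21). The licensing factor gene cdc18 fell from 64.0, 75.7 and 102 to 11.6, 18.2 and 32.2 CPM (-2.04 ± 0.10), and cdt1, for its partner, was lower at -2.73 ± 0.09. Highest quiescent and lowest cycling libraries did not meet for any of cdc22, tos4 and cdc18. Of 7 MBF subunit and regulator genes, only rep2, for its coactivator, was lower by at least 2-fold, at -2.77 ± 0.08. Of 25 replication genes, 13 were lower, 4 of them at least 2-fold, and 6 higher. Falls were thus about as frequent as among all coding genes, of which 48.8% were lower and 16.9% at least 2-fold lower. The deepest fall in the list was that of pcn1, for the sliding clamp PCNA, at -2.47 ± 0.07.

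A pair of elements with the MCB letters ACGCGT stand close together before cdc22 (SPAC1F7.05), 62 and 52 bases upstream of its annotated transcript start, and the window is shown with that of tos4 (SPAP14E8.02), whose element lies 79 bases upstream, because both are MBF targets that fell without overlap. Capitals mark ACGCGT, which reads the same on both strands. The windows are chrI:4226720-4226969 for cdc22 and chrI:1922293-1922542 for tos4, both on the forward strand (RefSeq, ASM294v3).
cdc22: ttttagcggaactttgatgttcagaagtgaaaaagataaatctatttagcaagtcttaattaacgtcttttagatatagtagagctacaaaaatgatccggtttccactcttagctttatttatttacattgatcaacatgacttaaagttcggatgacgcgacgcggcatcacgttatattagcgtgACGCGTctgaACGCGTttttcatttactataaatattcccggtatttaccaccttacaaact
tos4: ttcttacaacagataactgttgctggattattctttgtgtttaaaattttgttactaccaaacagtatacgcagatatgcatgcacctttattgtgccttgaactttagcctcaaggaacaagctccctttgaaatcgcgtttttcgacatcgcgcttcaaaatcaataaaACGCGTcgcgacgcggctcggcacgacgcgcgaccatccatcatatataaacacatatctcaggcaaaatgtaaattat

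ACGCGT was present in 7 of 16 promoters of MBF targets (43.8%) and in 2.47% of all promoters. The window before cdc18 held no match.

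Cyclins and mitotic genes did not move together. Of 21 cyclin, kinase and inhibitor genes, 8 were higher and 8 lower. cig2, the S-phase cyclin, fell from 200.2, 238 and 254 to 33.5, 54.7 and 71.6 CPM (-2.12 ± 0.06), cdc25, for the phosphatase that triggers mitosis, was lower at -1.54 ± 0.10, and cdc13, the mitotic cyclin, at -0.54 ± 0.07. The CDK inhibitor gene rum1, needed for arrest before S phase, was higher at 0.61 ± 0.06, and spd1, for the inhibitor of ribonucleotide reductase, at 1.56 ± 0.06. Of 40 genes of mitosis and septation, 20 were lower, 10 of them at least 2-fold, and 13 higher, 2 of them at least 2-fold. slp1, which activates the anaphase-promoting complex, fell from 189, 238 and 367 to 12.2, 20.7 and 28.4 CPM (-3.65 ± 0.08). cut2, for securin, which that complex destroys, rose from 4.60, 11.5 and 18.6 to 56.1, 80.5 and 125 CPM (2.89 ± 0.10). Both genes had groups that were fully apart, in opposite directions, which for slp1 was a condition of naming.

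Cohesin genes changed little outside the meiotic subunits. Of 16 cohesin and condensin genes, 7 were higher, 3 lower and 6 not called, with a median of 0.07. The loader gene mis4 was higher at 0.60 ± 0.06 and psm1, for an SMC subunit, at 0.55 ± 0.05. rad21, for the kleisin subunit cleaved at anaphase, was not called at 0.06 ± 0.11 (adjusted p = 0.633), nor was ssl3, for the partner of Mis4, at 0.07 ± 0.06 (adjusted p = 0.27). ssl3 was called higher when genes had to reach 10 counts in each library (0.18) and with TMM over protein-coding genes alone (0.21). eso1, for the cohesin acetyltransferase that acts during replication, was lower at -0.83 ± 0.07, and cut3, for a condensin subunit, at -1.09 ± 0.06. Of 10 histone genes, 6 were higher and 3 lower (median 0.62). hht2, for histone H3, rose from 252, 327 and 425 to 1279.7, 1649.7 and 2439 CPM (2.37 ± 0.06), hhf2, the neighbouring gene for H4, was higher at 1.67 ± 0.09, and hht1, for another H3, was lower at -1.01 ± 0.08. The rise was thus not shared by all H3 copies. Of 29 heterochromatin genes, 18 were lower and 7 higher (median -0.33), and only rik1, for a subunit of the H3K9 methyltransferase complex, was lower by at least 2-fold, at -1.15 ± 0.07, and rap1, for a telomere protein, higher by at least 2-fold, at 1.26 ± 0.09. swi6, for the heterochromatin protein HP1, was lower at -0.70 ± 0.06.

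The machinery of protein synthesis was lower. Of 136 cytosolic ribosomal protein genes, 116 were called lower, 43 of them at least 2-fold, 8 were called higher and 0 were at least 2-fold higher. Their median was -0.72, with medians of -0.78, -0.50, -0.88 and -0.94 in strains 86, 92, 93 and 97, and their share of coding counts went from 10.6% to 7.16%. rps902, for a small subunit protein, fell from 584, 796 and 1058 to 149, 191 and 229 CPM (-2.08 ± 0.07, adjusted p = 1.29e-19). rpp103, for an acidic stalk protein, fell from 127, 184 and 215 to 24.9, 40.8 and 86.3 CPM (-2.07 ± 0.12), and at the other end rpl6 was higher at 0.61 ± 0.12. The groups of rps902 and rpp103 were apart. Of 35 translation factor genes, 29 were lower, 16 of them at least 2-fold, and 3 higher (median -0.97), and the strongest fall was that of tif213, from 216, 257 and 315 to 24.4, 35.5 and 46.2 CPM (-2.93 ± 0.09). Of 61 ribosome biogenesis genes, 43 were lower and 12 higher (median -0.46), with nop56, for a core protein of box C/D small nucleolar particles, at -1.84 ± 0.07. Of 20 genes for RNA polymerases I and III, 15 were lower, 10 of them at least 2-fold, and 1 higher (median -0.87), with nuc1, for the largest subunit of polymerase I, at -1.85 ± 0.07.

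Ribosomal protein genes of fission yeast often carry the HomolD element, which stands in the place of a TATA box. The window before rpp103 (SPCP1E11.09c), among the most lowered of these genes, is shown as an example, with the letters CAGTCACA in capitals 60 bases upstream of the annotated start (chrIII:2408327-2408576, reverse strand, RefSeq ASM294v3).
rpp103: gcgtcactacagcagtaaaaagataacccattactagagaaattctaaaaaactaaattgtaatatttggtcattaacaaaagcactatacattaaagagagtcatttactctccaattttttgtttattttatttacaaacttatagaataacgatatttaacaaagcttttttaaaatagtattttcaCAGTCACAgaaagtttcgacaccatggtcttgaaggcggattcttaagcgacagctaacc

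CAGTCACA, on either strand, was present in 83 of 132 promoters of cytosolic ribosomal protein genes (62.9%) and in 2.87% of all promoters. The window before rps902, the most lowered of these genes, held no match.

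**Figure D3:**
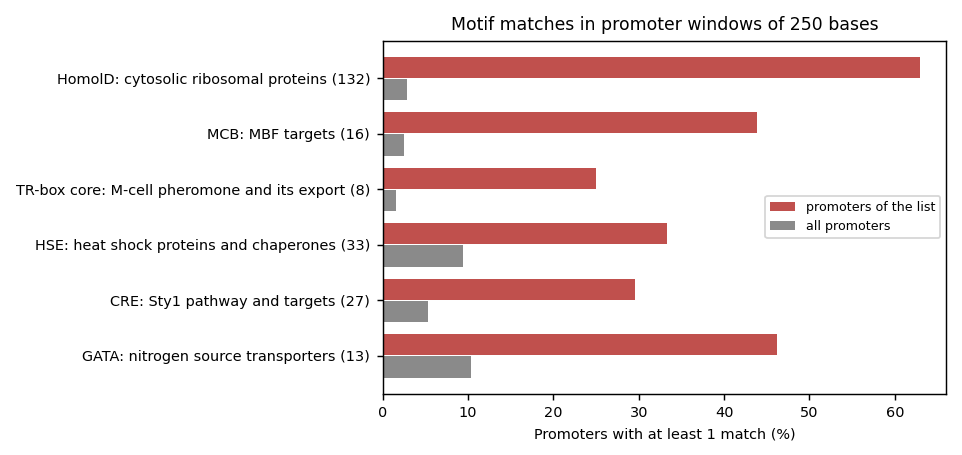
Percent of promoters, in the 250 bases before the annotated transcript start, that hold at least 1 match to a motif on either strand, for 6 gene lists and for all 4498 promoters. HomolD was present in 62.9% of ribosomal protein promoters against 2.87% of all, and the HSE letters in 33.3% of chaperone promoters against 9.40% of all.

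Chaperone genes were lower in the quiescent cells although both groups were at 36.5 °C. Of 35 heat shock and chaperone genes, 29 were called lower, 16 of them at least 2-fold, 5 were higher, all at least 2-fold, and 1 was not called, with a median of -0.93. The list held a median of 5.47% of coding counts in cycling and 2.69% in quiescent libraries. hsp90, for the chaperone of kinases and receptors, fell from 6938, 10067 and 12756 to 507, 729.9 and 1597 CPM (-3.65 ± 0.10, adjusted p = 5.95e-21). Genes of its helpers fell as well, with sti1 at -3.64 ± 0.09 and aha1 at -3.06 ± 0.07. bip1, for the Hsp70 of the endoplasmic reticulum, fell from 3821, 5880.3 and 8188 to 318, 455 and 827 CPM (-3.61 ± 0.08), and ssa2, for a cytosolic Hsp70, from 2542, 3461 and 4181 to 216, 480.1 and 1125 CPM (-2.86 ± 0.11). hsp104, for the disaggregase, fell from 699, 1586 and 2514 to 155, 222 and 329.7 CPM (-2.66 ± 0.08, adjusted p = 2.22e-20). For hsp90, bip1, ssa2 and hsp104 every quiescent library was below every cycling library.

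The small heat shock proteins behaved otherwise. hsp9 rose from 253, 569.8 and 2487 to 5651, 9504 and 15272 CPM (3.86 ± 0.12, adjusted p = 1.36e-19), with every quiescent library above every cycling library, at 2.62, 5.43, 5.24 and 2.13 in strains 86, 92, 93 and 97. hsp16, whose protein holds unfolded clients, went from 156, 1200.4 and 4221 to 409, 673 and 1183 CPM, with groups that overlapped and a fold change of -0.30 ± 0.13 (adjusted p = 0.0408). By strain its log2 change was -2.24, 1.51, 1.96 and -2.43 in strains 86, 92, 93 and 97, so the average covers falls in strains 86 and 97 and rises in strains 92 and 93. Without strain 86 the average was 0.35, and without strain 97 it was 0.41. The call was also lost in most other settings, such as without the replicate block (adjusted p = 0.0681), with the DESeq2 Wald test (adjusted p = 0.122) and without replicate 1 or 3 (adjusted p = 0.423 and 0.509). hsf1, the gene of the heat shock factor, rose from 117, 134 and 174 to 561, 648 and 743 CPM (2.22 ± 0.05), and hsp3105, for a glyoxalase III family protein, was higher at 7.06 ± 0.12.

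The windows before hsp90 (SPAC926.04c), which fell in all 4 strains, and hsp16 (SPBC3E7.02c), which went both ways, are shown because both hold the heat shock element letters GAANNTTC, in capitals, 57 and 93 bases upstream of their starts. They are chrI:3891140-3891389 and chrII:2660993-2661242, both on the reverse strand (RefSeq, ASM294v3).
hsp90: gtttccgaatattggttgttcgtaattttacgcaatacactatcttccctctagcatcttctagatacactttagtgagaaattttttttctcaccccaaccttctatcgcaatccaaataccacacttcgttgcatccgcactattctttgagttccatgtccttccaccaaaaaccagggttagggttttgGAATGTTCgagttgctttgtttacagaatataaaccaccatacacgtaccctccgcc
hsp16: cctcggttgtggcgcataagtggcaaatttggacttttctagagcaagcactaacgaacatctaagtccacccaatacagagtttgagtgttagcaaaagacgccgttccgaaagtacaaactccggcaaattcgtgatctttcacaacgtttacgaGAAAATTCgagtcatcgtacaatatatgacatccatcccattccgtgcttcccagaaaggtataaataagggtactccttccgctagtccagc

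GAANNTTC, which reads alike on both strands, was present in 11 of 33 chaperone promoters (33.3%) and in 9.40% of all promoters. The window before hsp104 held no match.

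Stress genes under Sty1 and Atf1 were higher on balance, with 20 of 32 called higher, 11 of them at least 2-fold, and 6 lower (median 0.81). The CRE letters TGACGT, read by Atf1, were in 8 of 27 of their promoters (29.6%) and in 5.34% of all. Of 23 redox genes, 14 were higher and 7 lower (median 0.55). gst2, for a glutathione transferase, was higher at 3.61 ± 0.07, and sod1, for copper-zinc superoxide dismutase, rose from 457, 1085 and 1284 to 2403, 3085 and 4496 CPM (1.80 ± 0.11). trx1, for cytosolic thioredoxin, was lower at -1.30 ± 0.07, and pmp20, for a thioredoxin-related chaperone, at -1.13 ± 0.10. Of 8 trehalose and glycerol genes 3 were higher and 4 lower, and tps1, for the synthase of the protectant trehalose, was lower at -0.99 ± 0.07.

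Sugar uptake and use shifted between isoforms. Of 8 hexose transporter genes, 6 were higher, 5 of them at least 2-fold, and 2 lower (median 1.48), with ght7 at 5.94 ± 0.23, ght6 at 4.45 ± 0.34 and ght1 at 2.07 ± 0.16, against ght2 at -1.14 ± 0.07 and ght8 at -0.31 ± 0.06. ght5, for the high-affinity transporter that cells need in low glucose, was higher at 0.56 ± 0.13 on average, and its log2 change was 1.54, -0.14, -0.22 and 1.18 in strains 86, 92, 93 and 97. ght5, ght8 and ght3, which was higher at 1.60 ± 0.09, share more than 10% of their 58-base stretches with other genes and are less certain. Of 19 genes of glycolysis and gluconeogenesis, 12 were lower and 5 higher. pgk1, for phosphoglycerate kinase, fell from 4720.3, 5965 and 8943 to 690.0, 970.1 and 2218 CPM (-2.58 ± 0.09). fbp1, for fructose bisphosphatase, which is kept off by glucose, rose from 9.95, 16.3 and 21.8 to 99.3, 146 and 168 CPM (3.12 ± 0.09). The groups of both genes were apart. eno102, an enolase gene, was higher at 5.40 ± 0.12, and gld1, for glycerol dehydrogenase, at 3.81 ± 0.12.

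Mitochondrial genes moved in both directions, among nuclear genes and on the mitochondrial genome alike. Of 15 tricarboxylic acid cycle genes, 11 were higher and 1 lower (median 0.46), with mdh1, for malate dehydrogenase, at 1.91 ± 0.11. Of 53 nuclear genes of the respiratory chain, 27 were higher, 8 of them at least 2-fold, and 21 lower, 0 of them at least 2-fold (median 0.17), with cox8 at 2.03 ± 0.11 and atp7 at 1.70 ± 0.08. Of 59 mitochondrial ribosomal protein genes, 32 were lower and 16 higher, with a median of -0.21 beside -0.145 over all coding genes. Of 11 coding genes on the mitochondrial genome, 7 were lower, 5 of them at least 2-fold, and 3 higher (median -0.42). Its 24 transfer RNA genes, whose signal also depends on depletion and fragment length, were lower in 19 cases and higher in 0 (median -1.28), and its 2 ribosomal RNA genes were higher, while the whole mitochondrial genome, ribosomal RNAs included, took a median of 12.3% of counts in quiescent libraries, above the median of cycling ones. Its ribosomal protein gene, var1, was lower at -3.34 ± 0.28.

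Nucleotide and lipid synthesis genes were lower more often than coding genes as a whole. Of 59 amino acid biosynthesis genes, 34 were lower, 13 of them at least 2-fold, and 12 higher (median -0.29), which is near the shares of all coding genes. The list took a median of 2.23% of coding counts in cycling and 2.16% in quiescent libraries, with ranges that overlapped. Of 16 purine and pyrimidine genes, 13 were lower, 8 of them at least 2-fold, and 1 higher (median -1.04). Of 23 sterol genes, 19 were lower, 13 of them at least 2-fold, and 1 higher (median -1.08), with erg31, for a sterol desaturase, at -2.58 ± 0.11 and erg1, for squalene epoxidase, at -2.26 ± 0.09. Of 16 fatty acid genes, 10 were lower and 1 higher, with the synthase subunit gene fas1 at -1.67 ± 0.08 and cut6, for acetyl-CoA carboxylase, at -1.54 ± 0.09. Phosphate and thiamine genes rose instead, with 13 of 17 higher, 7 of them at least 2-fold, and 2 lower (median 0.70). Iron and copper genes split, with 9 of 18 higher and 8 lower, as did zinc genes, with 5 of 9 higher and 3 lower, where zrt1, for the zinc uptake transporter, was lower at -3.52 ± 0.22 beside the rise of zym1. Flocculin-type surface protein genes numbered 4 higher and 8 lower of 12.

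Genes close to chromosome ends were higher more often than genes elsewhere. Of 138 coding genes within 100 kb of the end of an assembled chromosome, 73 (52.9%) were at least 2-fold higher and 14 at least 2-fold lower, with a median of 1.18. Of 4832 genes further in, 14.7% were at least 2-fold higher and 17.1% lower, with a median of -0.16. Some end genes passed the filter on low counts only through quiescent libraries. The highest count in any V36.5 library was 0 for SPBPB21E7.10, 1 for shu1 and 3 for SPAPJ695.01c. Such genes could only be called higher. They are included in the 73 and in the counts by end given below, and their number was not taken for either zone. With 21 genes left out that share more than 10% of their 58-base stretches with another place, 59 were at least 2-fold higher (median 1.02). The ends differed among themselves. At the left end of chromosome II 15 of 17 genes were at least 2-fold higher (median 3.99) and at the left end of chromosome I 17 of 20 (median 2.12). The right ends of chromosomes I and II had 13 of 18 and 10 of 19, and the ends of chromosome III, which border the ribosomal DNA, had 9 of 29 and 9 of 35.

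At 25 °C the same contrast (T4D25 over V25) had medians below 0 at both left ends, -0.52 on chromosome I and -0.67 on chromosome II. The difference between temperatures was called as higher at 36.5 °C for 14 of 20 and 10 of 17 genes, respectively, against 33.2% of all genes. Examples were chosen after their values were seen. grt1, for a transcription factor, had 0, 1.46 and 3.71 CPM in V36.5 and 39.0, 52.7 and 154 CPM in T4D36.5 (5.26 ± 0.15), against a log2 fold change of -2.51 at 25 °C. aes1, for a protein of the phenazine biosynthesis family, rose from 3.38, 21.6 and 59.5 to 305, 454 and 706 CPM (4.91 ± 0.10), against -1.30 at 25 °C. fah1, for an acetamidase, overlaps grt1 on the opposite strand and rose from 0.188, 1.57 and 4.45 to 5.06, 34.4 and 53.2 CPM (3.99 ± 0.21), against -3.93 at 25 °C. All 3 were without overlap at 36.5 °C. The urea transporter gene SPBPB8B6.02c was higher at 3.95 ± 0.15, against -2.40, and ght7, which lies in the same region and was named above, at 5.94 ± 0.23, against -0.67. Median levels in V25 and T4D25 were 0.916 and 0 CPM for fah1, 1.16 and 0.196 CPM for SPBPB8B6.02c, and 2.78 and 0.456 CPM for grt1. Their falls at 25 °C thus rest on few counts, since 3 counts are up to 1.68 CPM in a V25 library. For aes1 the medians were 48.6 and 17.0 CPM. Many of these genes were near silent in cycling cells. At the left ends of I and II 32 genes were at least 2-fold higher, and only 9 when 10 counts were required in every library.

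**Figure D4:**
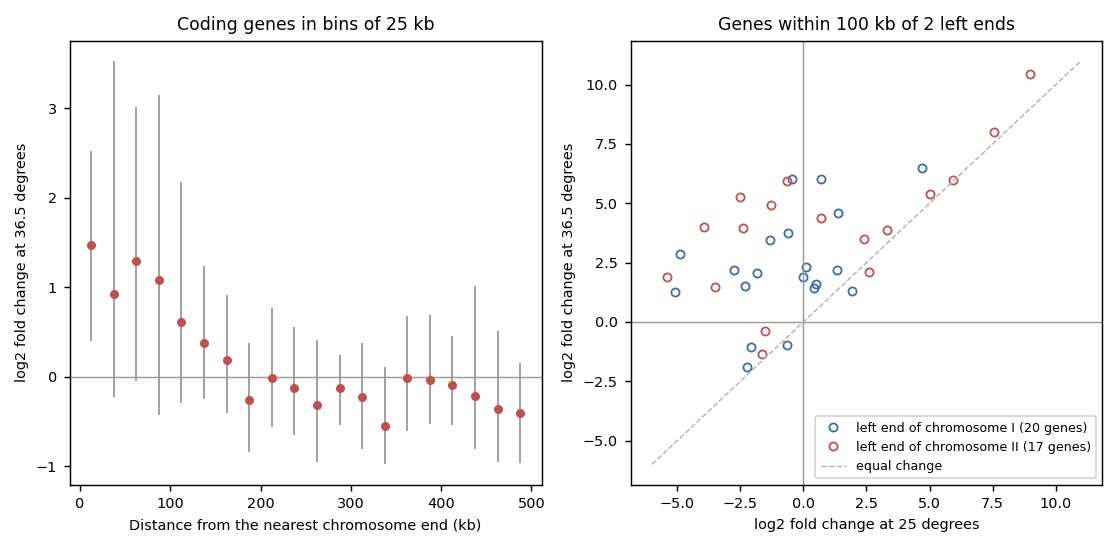
Left, median log2 fold change (T4D36.5 over V36.5) of coding genes with quartile bars by distance from the nearest chromosome end, in 25-kb bins to 500 kb; right, genes within 100 kb of the left ends of chromosomes I (20) and II (17), log2 fold change at 25 °C against that at 36.5 °C, with a dashed line of equal change. Medians are above 0 near the ends, and 14 and 10 of the left-end genes lie higher at 36.5 °C by the test of the difference.

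Repeated gene families were higher as well. All 25 wtf genes tested, a family of meiotic drivers, were called higher and 20 at least 2-fold (median 1.99), though 20 share more than 10% of their sequence with another place in the genome and their reads may be misassigned. Of 13 Tf2 retrotransposon genes, 6 passed the filter on low counts. These 6 were all higher, and all 6 share their sequence. The 13 together took a median of 0.0028% of coding counts in V36.5 and 0.0378% in T4D36.5. Levels this low in cycling cells left little room for a lower call. Tf2-13 was close to 0, with 0, 0.387 and 3.00 CPM in V36.5 and 0, 2.44 and 10.5 CPM in T4D36.5, and was not called without replicate 2.

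Noncoding RNAs took a larger part of the counts in quiescent libraries. Of 1050 annotated noncoding RNA genes tested, 675 were higher, 520 of them at least 2-fold, and 226 lower, 120 of them at least 2-fold (median 0.98). Quiescent libraries held a median of 8.20% of counts in them (6.79% to 11.5%) and cycling libraries 4.68% (3.00% to 7.91%), so the ranges overlapped. Of 27 small nucleolar RNAs, 21 were higher and 1 lower (median 1.84). snR94 rose from 385, 737 and 1349.7 to 5228, 5900.0 and 10907 CPM (3.25 ± 0.10), and snoR47 and snoU14, which guide or assist ribosomal RNA processing, were higher at 3.95 ± 0.17 and 3.35 ± 0.17. Genes with a small nuclear RNA identifier, named after their values were seen, were higher in 7 of 7 cases. Among them were snu4 at 3.42 ± 0.32, snu5 at 3.27 ± 0.16 and snu6 at 3.26 ± 0.17. These small RNAs, like the other noncoding RNAs, move with the difference in library preparation named above, and its part in their rise was not tested. Of 16 polyadenylated prl RNAs tested, 12 were higher and 3 lower (median 2.64), with prl65 going from 5.80, 8.47 and 13.7 to 611, 953 and 1156 CPM (6.72 ± 0.10). Splicing factor genes themselves were even, with 25 of 56 higher and 26 lower, and sde2, for a splicing regulator, chosen after its values were seen, rose from 31.5, 36.6 and 42.5 to 186, 247 and 367 CPM (2.77 ± 0.06).

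Antisense RNAs went both ways. Of 531 tested, 291 were higher, 209 of them at least 2-fold, and 159 lower, 90 of them at least 2-fold (median 0.58). Counts were assigned by strand as far as the table shows, since 128 of 158 noncoding genes lying wholly within an exon on the other strand had at least 100 counts. SPBC1652.02-antisense-1 rose from 0, 0.901 and 1.62 to 85.4, 228 and 529 CPM (8.31 ± 0.18), where the sense gene, an amino acid transporter, was lower at -3.05. The antisense RNA of bst1, for a GPI inositol deacylase, had 0, 0 and 0.684 CPM in V36.5 and 40.2, 118 and 248 CPM in T4D36.5, while bst1 itself was lower at -0.35. In the other direction, ckk2-antisense-1 fell from 46.6, 90.2 and 244 to 0.440, 1.57 and 6.10 CPM (-5.68 ± 0.15), with ckk2, a kinase gene, higher at 1.33. atg1801-antisense-1 was lower at -5.09 ± 0.33, with the autophagy gene atg1801 higher at 1.74. cph1-antisense-1 fell from 19.95, 52.1 and 213 to 0, 0.357 and 1.95 CPM (-6.61 ± 0.21), and cph1, for a histone deacetylase complex subunit, was lower too, at -2.10. Over 410 pairs, the sense gene was at least 2-fold higher for 22 of 69 antisense RNAs that were at least 2-fold lower (31.9%), for 29 of 157 that were at least 2-fold higher (18.5%), and for 51 of 184 that were neither (27.7%). Sense genes at least 2-fold lower numbered 5, 28 and 25 in these groups (7.25%, 17.8% and 13.6%).

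The same contrast was measured at 25 °C with other libraries of the same strains. This allows a test of whether the difference between quiescent and cycling cells was the same at both temperatures. Quiescent cells had spent 4 days at 36.5 °C and cycling cells the time of 1 doubling. Temperature and the time spent at it thus cannot be told apart here. The difference between temperatures was called in 2094 genes as higher at 36.5 °C (33.2%) and in 2206 as lower (34.9%). Ribosomal protein genes fell less at 36.5 °C, with a median of -0.72 against -1.55 at 25 °C, and the test of the difference was past the threshold in this direction for 130 of 136 genes and in the other for 0. Translation factors went the same way, with 30 of 35 and 0, as did amino acid biosynthesis genes, with 42 of 59 and 11. Autophagy genes rose less at 36.5 °C, with a median of 1.31 against 1.91, and 21 of 27 differences were called as lower. For the M-cell pheromone genes 8 of 10 differences were called as lower, with medians of 0.12 and 1.75, and for pheromone signalling 9 of 11, with medians of -0.07 and 1.16. mam2 gives the plainest case, with a log2 fold change of -0.25 ± 0.23 at 36.5 °C and 4.36 at 25 °C (difference -4.53 ± 0.26, adjusted p = 1.49e-18). mfm1 rose by 10.19 at 25 °C and by 5.28 ± 0.25 at 36.5 °C (difference -4.83 ± 0.64, adjusted p = 1.46e-08).

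Meiotic genes were divided between the temperatures, with 9 of 30 differences called as higher and 13 as lower at 36.5 °C. mei4 stood at 5.07 ± 0.09 against 2.77 (difference 2.37 ± 0.21, adjusted p = 8.72e-13) and atf21 at 5.91 ± 0.20 against 1.60. For chaperones 21 of 35 differences were called as lower at 36.5 °C, and 11 as higher, with a median difference of -0.82 over the genes. The median fold change of the chaperone genes was nevertheless -0.93 at 36.5 °C and -1.19 at 25 °C, so by that measure they fell more at 25 °C. At 25 °C their share of coding counts was 2.85% in V25 and 2.19% in T4D25. Within the list, ssa1, for another cytosolic Hsp70, was lower at -0.74 ± 0.09 and higher by 2.29 at 25 °C, and hsp104 stood at -2.66 ± 0.08 and -0.38. Genes of mitosis and septation had 26 of 40 differences called as lower and heterochromatin genes 20 of 29, while histone genes had 9 of 10 called as higher. tps1 turned from 1.05 at 25 °C to -0.99 ± 0.07 at 36.5 °C, and aat1 from -4.63 to -0.53 ± 0.09. Of the 1376 genes at least 2-fold higher at 36.5 °C, 978 were also at least 2-fold higher at 25 °C, and of the 994 at least 2-fold lower, 647 were also at least 2-fold lower.

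The 4 strains shared the larger part of the response. Of the 5320 genes called, 4659 had the same direction in all 4 strains, and of the 2370 that also changed at least 2-fold, 2330 did. A test of any difference among strains in the contrast was called for 1785 genes (28.7%), and 648 of these had opposite directions in different strains. The number of genes called in that test was 675 without replicate 2 and 1071 without the replicate block. hsp16, mfm2, ste11, ptr2 and mam2 were among the genes with opposite directions. mam2 stood at 1.09, -1.39, -1.63 and 0.65 in strains 86, 92, 93 and 97. Autophagy, ribosomal protein and chaperone medians kept their sign in every strain, as the open symbols in the plot of list medians show. Some other lists did not. Medians were 0.38, -0.58, -0.44 and 0.39 for pheromone signalling in strains 86, 92, 93 and 97. For nitrogen assimilation they were 0.56, -0.09, -0.07 and 0.58.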

How the data were processed

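RNA-seq libraries of 4 Schizosaccharomyces pombe strains in 2 growth conditions were used, with 3 libraries per strain and condition. The series calls the triplicates biological, but the labels do not say that they came from separate cultures, so p-values measure the spread between these samples. Per the series text and methods, the authors depleted ribosomal RNA (Ribominus), made stranded ligation libraries and sequenced paired 58-base reads. Per the submitters' processing notes they used bcl2fastq, STAR 2.7.10a and featureCounts 1.5.1 on build ASM294v2 with Ensembl Fungi release 35. The authors deposited raw counts for 7014 genes and 92 ERCC spike-in RNAs, without normalization.

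Spike-ins were dropped. Counts were filtered with filterByExpr, scaled by TMM and fitted in edgeR 4.0.16 (R 4.3.3) with a mean for each strain and condition and the replicate number as a block, and the contrast was averaged over strains. The quasi-likelihood test was used with Benjamini-Hochberg adjustment and a threshold of 0.05, and SE was the fold change divided by the root of F. Log2 values by strain used a prior count of 2. The pairing of replicates comes from the labels, which call the number a batch. Deviations from group means correlated at a mean of 0.215 between libraries of the same number in the other condition (lowest -0.0903) and at -0.105 between different numbers. Differences from 25 °C were tested as an interaction over 48 libraries, and differences among strains as the interaction of strain and condition over 24. Replicate pairs differed beyond sampling noise, with chi-square per degree of freedom of 5.94 to 57.1.

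Of the gene rows, 6846 matched a RefSeq locus tag. Coordinates of genes are those of the table, and promoter windows are from RefSeq ASM294v3, since no genome of the authors' build was used here. Coding genes were named by rank (the 8 largest changes each way and up to 3 each way per list, from an average log2 CPM of 1 upward), noncoding RNAs by rank (4 each way), and others for their role. Genes ranked genome-wide also had to be called, move the same way in the 4 strains and not overlap between groups. For them the lack of overlap was thus a condition and not a result. aha1, atg3, cat1, gas1, hsf1, mam1, per1, sde2, ssa2, swi6, yhb1, the small nuclear RNAs and the genes of the left chromosome ends were named after their values were seen. Members and gene lists were chosen with earlier results of these data known. The floor of 3 counts reflects counting error alone, because PCR copies were not marked by molecular identifiers. Alternatives left out the block, a replicate, a strain or ribosomal RNA genes, or changed the scaling, the filter, the test, the libraries in the fit or the depth. No genotype comparison was made.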

Additional observations from a re-analysis of the deposited data

Results flagged for a closer look

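The difference between quiescent and cycling cells was itself different at 36.5 °C and 25 °C for 4300 genes in edgeR's quasi-likelihood test of the interaction, and different among the 4 strains for 1785 genes. Some genes changed in opposite directions at the temperatures. The log2 fold change at 36.5 °C exceeded that at 25 °C by 7.98 for fah1, 7.81 for grt1, 6.39 for SPBPB8B6.02c and 6.27 for aes1, all at the left end of chromosome II. In the same region it did so by 7.32 for the arylsulfatase gene SPBPB10D8.02c and by 5.06 for the cysteine transporter gene SPBPB10D8.01, and by 4.99 for SPAC977.15, a dienelactone hydrolase family gene at the left end of chromosome I. More than 100 kb from an end, leu3, for isopropylmalate synthase of leucine synthesis, had a difference of 3.06, and pmp20 had a difference of -2.67. At 25 °C fah1, grt1 and SPBPB8B6.02c were low in both groups, so their falls there rest on few counts.

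Other genes changed in opposite directions among strains. The range of the log2 fold change over the 4 strains was 4.88 for SPBPB10D8.02c, 4.39 for hsp16, 3.60 for gal7, 3.15 for ptr2 and 3.14 for mfm2. It was 2.72 for mam2, 2.34 for adh1, which encodes alcohol dehydrogenase, 2.30 for the permease gene cat1, 2.17 for rgs1, 2.15 for arb2, which encodes an argonaute binding protein, and 2.03 for ste11. The strain codes are not paired with genotypes in the labels, so these ranges cannot be set against genotype.

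Spike-in RNA, which was left out of the comparison, gave at least 45817 counts in every T4D36.5 library and at most 8 in any V36.5 library.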

How the results depend on the processing

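The number of genes called, 5320, stayed between 4180 (at least 10 counts in every library) and 5494 (no filter on low counts) over the alternatives, and no gene called in both fits changed sign except 1 each without strain 86, 92 and 97. Leaving out a strain and TMM over protein-coding genes alone were chosen after seeing the data. The latter raised the median log2 fold change of all genes by 0.14 and gave 2938 higher of 5322 called, against 2614 of 5320. List medians closer to 0 than that shift have no firm direction. The replicate block is part of the design, and without it 5105 genes were called. Differences among strains were called for 1071 genes without the block, and for 675 to 1387 when a replicate was left out, against 1785. With at least 10 counts in every library, 9 genes were at least 2-fold higher at the left ends of chromosomes I and II, against 32. That setting tested 4896 genes in all, against 6223, and how many left-end genes it tested was not counted.

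Among named genes, 6 changed sign somewhere. rad21 went from 0.06 to -0.0059 without the replicate block, -0.12 to 0.22 when a replicate was left out and -0.088 without strain 93. tor2 went to -0.0099 with ERCC spike-ins kept, and ssl3 to -0.029 without strain 97. hsp16 went to 0.35 and 0.41 without strains 86 and 97, mam2 to 0.16 and 0.25 without strains 92 and 93, and gal7 to 0.59 without strain 92. The cause was not tested. Over all alternatives, 21 named genes lost a call and 4 gained one in at least 1 setting. Library sizes from the spike-ins could not be used, since V36.5 libraries held too few. Depth limits genes near 0 in V36.5, where 3 counts are 2.05 CPM in the shallowest library.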

Other observations

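Nuclear transfer RNA genes, whose signal depends on the depletion and on fragment length, went the other way from those of the mitochondrial genome. Of 61 tested, 34 were called higher and 14 lower in T4D36.5 (median 0.66), and 40 of them share more than 10% of their sequence with another place in the genome. Of 37 ribosomal RNA genes 14 were higher and 8 lower. omt3, a noncoding RNA gene, had 0.271, 1.07 and 2.14 CPM in V36.5 and 72.3, 218 and 780.3 CPM in T4D36.5. Its lack of overlap was a condition of naming. Of 4 genes of galactose use, 2 were higher and 2 lower. gal7, for galactose-1-phosphate uridylyltransferase, had a log2 change of 0.82, -2.69, 0.03 and 0.91 in strains 86, 92, 93 and 97, so its average says little of any strain. No hypothesis was tested on these values.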
